A study of Mus musculus with 4 samples.

Results

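The 39 genes described here act in G2 and mitosis: CDK1 and its cyclins, the spindle kinases and motors, the spindle checkpoint, the kinetochore, and the proteins of anaphase and cytokinesis. They were chosen by gene symbol, from a list of mitotic genes drawn up with earlier results of these data known, and all 39 were found among the 55339 rows of the expression table and passed the filter that left 17303 genes for testing. Expression was measured by sequencing polyadenylated RNA of leukemia cells taken from the bone marrow of C57BL/6 mice. The WT group holds 2 libraries, replicates 4 and 5. The Ybx1 group holds 2 libraries of genotype YBX1-/-, titled cKO, replicates 1 and 3, and is called the knockout here. The titles number knockout replicate 3 as RNA-seq 2 and the other libraries as RNA-seq 1. The labels name no leukemia driver, no Cre line, no age and no animal for any library, so a p-value here reflects differences among these 4 libraries alone, and those may be technical. The question set by the series title is whether YBX1, an mRNA-binding cold-shock domain protein, maintains myeloid leukemia cells through mRNA stability.

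Entry into mitosis is driven by CDK1 bound to cyclin A or cyclin B. Aurora and Polo-like kinases then build the spindle, the checkpoint proteins delay anaphase until every kinetochore is attached, and the anaphase-promoting complex with CDC20 releases separase and ends mitosis. Most of these genes are transcribed late in the cell cycle by the MuvB, B-MYB and FOXM1 proteins, which act at the cell cycle genes homology region (CHR), together with NF-Y at CCAAT boxes, so in a growing population their mRNAs are known to vary together with the share of cycling cells.

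The promoters of 6 members are printed to show this layout and how it varies. Ect2, Kif11, Cdk1 and Espl1 held both motifs, while Ccnb1 and Bub1 held 2 CCAAT boxes each and no match to the CHR core. Ect2, Kif11, Ccnb1 and Bub1 lay above WT in both knockout libraries, Espl1 lay below, and Cdk1 is the kinase that the group centres on. Each stretch covers the 120 bases before the RefSeq start on the gene's strand, 5′ to 3′ (build GRCm38.p6), with the CHR core (TTTGAA, or TTCAAA for the other strand) and the CCAAT box (CCAAT, or ATTGG for the other strand) in capitals.
Ect2 (chr3:27153879-27153998, minus strand): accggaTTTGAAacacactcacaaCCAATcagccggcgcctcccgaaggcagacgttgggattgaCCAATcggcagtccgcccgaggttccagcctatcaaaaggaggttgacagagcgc
Kif11 (chr19:37376262-37376381, plus strand): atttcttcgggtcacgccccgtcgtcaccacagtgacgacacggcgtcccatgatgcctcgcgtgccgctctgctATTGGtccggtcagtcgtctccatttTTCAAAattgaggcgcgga
Ccnb1 (chr13:100786487-100786606, minus strand): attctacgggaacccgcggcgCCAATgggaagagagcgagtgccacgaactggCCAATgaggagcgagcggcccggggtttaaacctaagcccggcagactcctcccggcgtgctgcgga
Bub1 (chr2:127831860-127831979, minus strand): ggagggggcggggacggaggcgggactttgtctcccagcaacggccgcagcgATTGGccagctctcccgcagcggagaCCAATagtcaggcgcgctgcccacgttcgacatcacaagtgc
Cdk1 (chr10:69352913-69353032, minus strand): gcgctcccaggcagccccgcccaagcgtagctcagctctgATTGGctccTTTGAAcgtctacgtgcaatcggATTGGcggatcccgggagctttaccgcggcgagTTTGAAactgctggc
Espl1 (chr15:102296173-102296292, plus strand): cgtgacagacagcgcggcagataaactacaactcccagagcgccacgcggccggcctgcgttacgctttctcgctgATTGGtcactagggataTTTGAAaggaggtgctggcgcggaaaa

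RefSeq promoters of 250 bases before to 50 after the start were matched for 33 of the 39 members. The CHR core was found on either strand in 24 of these 33 genes (72.7%), against 20.2% of the 27025 genes with a promoter in the same table. A CCAAT box was found in 25 of the 33 (75.8%) against 41.1%, and both motifs in 21 (63.6%) against 7.97%. Of 102 matched genes in the lists of other mitotic genes described further on, 41 held the CHR core (40.2%) and 28.4% both motifs. With 150 bases before the start the CHR core was again found in 24 of the 33 members, against 34.3% of the other mitotic genes and 12.8% of all genes. The core letters of the 2 motifs do not overlap each other. The 10 matched members that lay above both WT libraries in both knockout libraries held the CHR core in 5 cases (Ect2, Kif11, Aurka, Bub1b and Cenpa). Espl1, the member that lay below, held both motifs too. A match is a description of letters in a window, and a window without a match says nothing about binding.

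**Figure D1:**
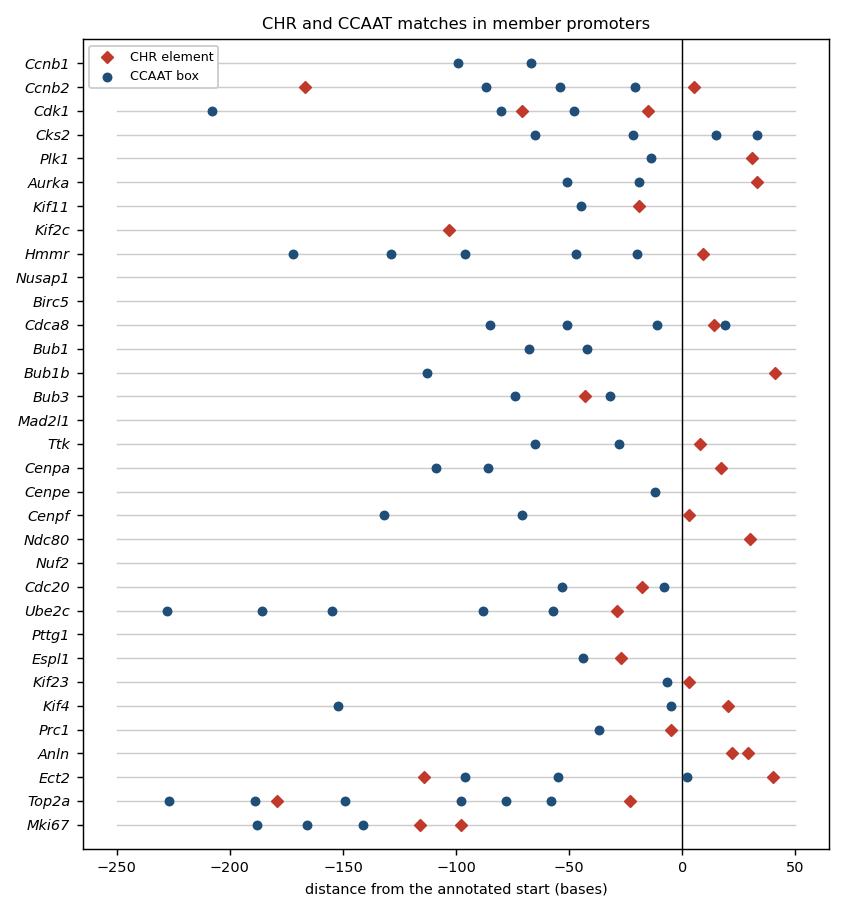
Matches to the CHR core (red diamonds) and the CCAAT box (blue circles) on either strand in the promoters of the 33 matched members, by distance of the first base from the annotated start in bases (the first listed promoter where a gene has more). The CHR core lies in 24 of the 33 promoters, each time with a match from 120 bases before to 50 after the start.

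Ybx1, the targeted gene (chromosome 4, 119277981 to 119294604, minus strand, GRCm38), stood at a log2 expression value of 19.70 and 10.002 in WT replicates 4 and 5 and at 7.29 and 8.33 in knockout replicates 1 and 3. Both knockout libraries lay below both WT libraries, as they did for 18.8% of all tested genes. The difference of Ybx1 was -7.04 (SE 3.49), with an adjusted p of 0.826 by limma, and -2.19 without WT replicate 4. Within the knockout pair, replicate 1 minus replicate 3 was -1.03 log2 for Ybx1. Many abundant genes of WT replicate 4 take values far from those of the other 3 libraries, so the counts of members against WT are also given without it. All values are log2 values as deposited. Whether they were scaled by gene length is not known, so levels are compared between libraries and not between genes. The table has no counts, so the depth behind each value is unknown.

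Among the mitotic genes the clearest pattern lay within the knockout pair. Knockout replicate 1 lay above knockout replicate 3 in 37 of 39 members (94.9%), against 53.7% of the 17303 tested genes. The median difference was 1.10 log2, a 2.14-fold higher level in replicate 1, against 0.014 log2 over all tested genes. The difference was over 1 log2 in 23 members (59.0%), against 11.0% of all tested genes. Among genes with a mean of at least 7 over WT replicate 5 and the knockout libraries, it was over 1 log2 in 20 of 35 members (57.1%), against 4.23% of 6081 genes. The 2 members on the other side were Cks2, the small CDK-binding subunit, at 9.44 in replicate 1 and 9.899 in replicate 3, and Pttg1, the securin gene, at 8.29 and 8.76. With 1 library on each side of this difference it has no replicate check. In bulk RNA a smaller share of mitotic cells and less mitotic mRNA per cell cannot be told apart. The replicate and the RNA-seq number in the title cannot be told apart either.

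WT replicate 5 lay between the knockout libraries for most members. Knockout replicate 1 lay above it in 37 of 39 members (94.9%, against 57.7% of all tested genes), by a median of 0.81 log2 or 1.76-fold. Knockout replicate 3 lay above it in 13 of 39 (33.3%, against 50.7%), with a median of -0.23. In 24 members replicate 1 was above and replicate 3 below the same WT library. In 34 members the distance between the knockout libraries was wider than the distance of their mean from WT replicate 5. No share over all tested genes was computed for the counts of 24 and 34, so both describe the members alone.

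**Figure D2:**
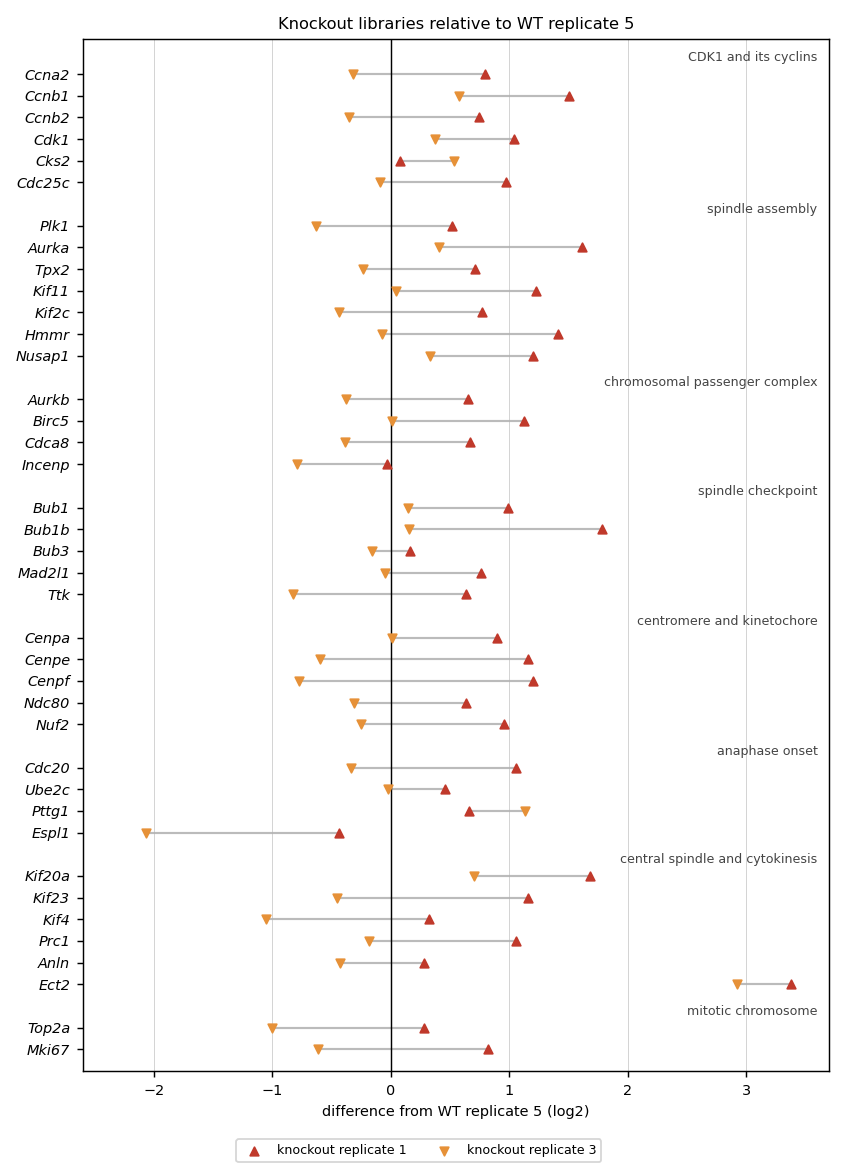
Difference of knockout replicate 1 (red) and knockout replicate 3 (orange) from WT replicate 5 on the log2 scale for the 39 members, grouped by role, with a grey line joining the pair. Replicate 1 lies right of 0 in 37 members and replicate 3 in 13, and Ect2 is the member with both knockout libraries more than 2 log2 above WT replicate 5.

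Against both WT libraries, both knockout values lay higher in 11 of 39 members (28.2%, against 17.3% of all tested genes) and lower in 1 (2.56%, against 18.8%). The 11 are Ccnb1, Aurka, Kif11, Nusap1, Birc5, Bub1, Bub1b, Cenpa, Pttg1, Kif20a and Ect2, and the lower one is Espl1. In 9 of these 12 the gap between the groups was over 0.1 log2, and in 2, Ect2 and Pttg1, it was wider than the distance within either pair. Without WT replicate 4 the count was 13 of 39 (33.3%), against 41.8% of all tested genes, and 2 lay below (5.13%, against 33.4%). In 10 of these 15 the gap to WT replicate 5 was over 0.1 log2, and in 2, again Ect2 and Pttg1, it was wider than the distance within the knockout pair. Gaps were not counted over all genes whose groups did not overlap, so these gap counts describe the members alone. Without knockout replicate 3, replicate 1 alone lay above both WT libraries in 32 of 39 members (82.1%, against 28.2% of all tested genes). Without knockout replicate 1, replicate 3 alone did so in 11 (28.2%, against 23.8%). Without WT replicate 5, both knockout libraries lay above WT replicate 4 in 29 (74.4%, against 38.5%). The median member difference, knockout minus WT, was 1.31 log2, against -0.093 over all tested genes, and 0.30 against 0.074 without WT replicate 4. Over the 9144 genes that reached a log2 value of 5 in at least 2 libraries, all 39 members among them, the median difference was 0.60. Many tested genes stood low: 54.7% lay below 6 in WT replicate 5, against 2 of 39 members. The shares of genes above and below WT were not matched for level.

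Limma called 0 of 39 members and 0 of 17303 genes (0.0%) at an adjusted p under 0.05, where the adjustment is Benjamini-Hochberg over all tested genes. At an unadjusted p under 0.05 there was 1 member, Ect2, and 651 genes (3.76%). Limma's adjusted p was 0.826 for each member named below with a difference and its SE, except Cenpa at 0.831. Without WT replicate 4 limma again called 0 members and 0 genes (0.0%), with 1 member and 1799 genes (10.4%) at an unadjusted p under 0.05. Without WT replicate 5 it called 10 members (25.6%), a share no higher than the 28.7% of all tested genes: Aurkb, Incenp, Bub3, Mad2l1 and Kif20a higher in knockout, and Cdk1, Cks2, Cdc25c, Top2a and Mki67 lower. That fit has WT replicate 4 as its lone WT library, assumed to vary like the knockout pair. Limma called 0 members without knockout replicate 1 (0.15% of all tested genes) and 0 without knockout replicate 3 (0.509%).

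**Figure D3:**
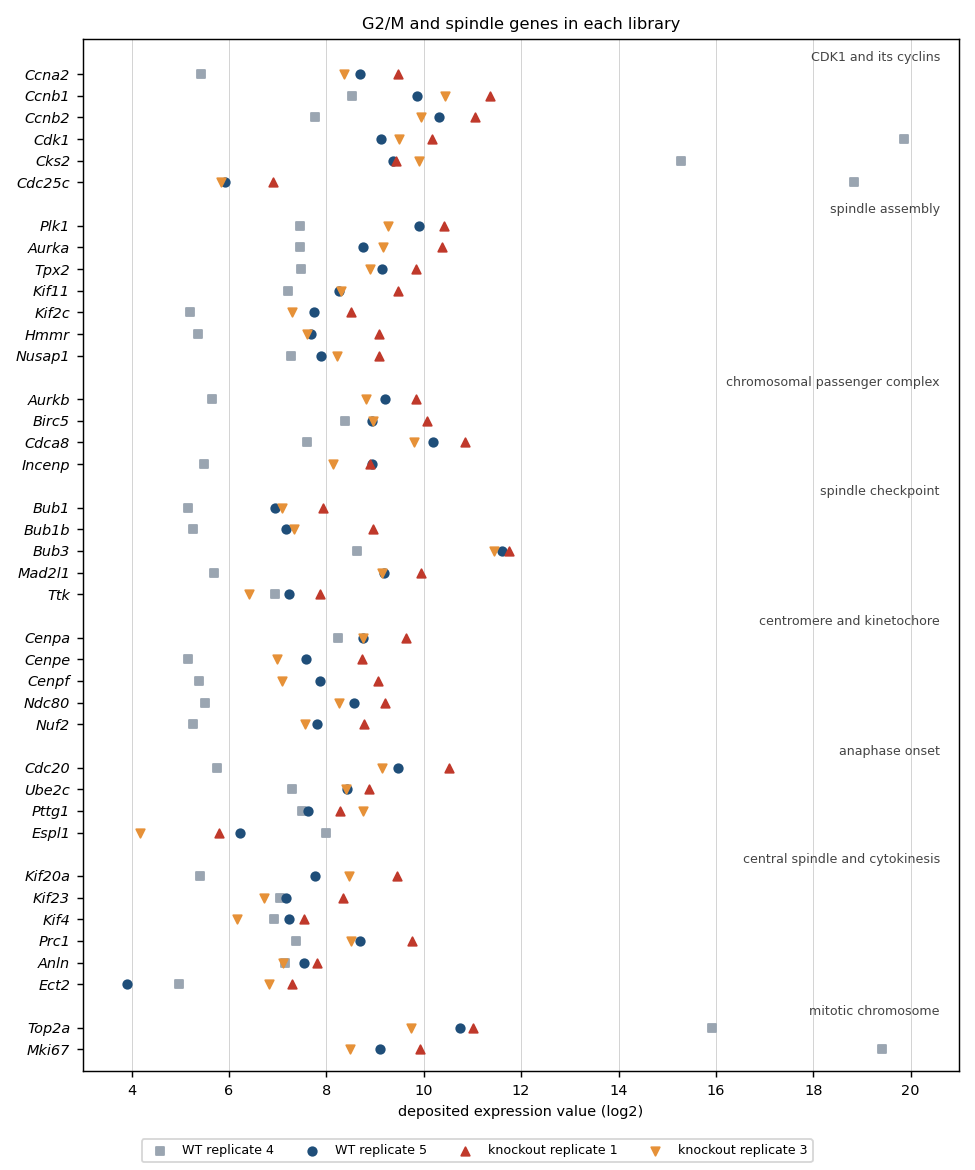
Deposited log2 expression of the 39 members in WT replicate 4 (grey squares), WT replicate 5 (blue circles), knockout replicate 1 (red up triangles) and knockout replicate 3 (orange down triangles), grouped by role. WT replicate 4 lies left of WT replicate 5 in 32 members, and far right at 15.29 to 19.86 in Cks2, Top2a, Cdc25c, Mki67 and Cdk1.

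CDK1 and its partners open mitosis, and their B-type cyclin gene Ccnb1 lay higher in both knockout libraries. Ccnb1 (chromosome 13, 100778650 to 100786570, minus strand) stood at 8.53 and 9.86 in WT replicates 4 and 5 and at 11.37 and 10.44 in knockout replicates 1 and 3, with no overlap. Its limma difference was 1.70 (SE 1.09), and its knockout mean was 2.05-fold above WT replicate 5. Ccnb2, the other mitotic B-type cyclin, stood at 7.77 and 10.31 in WT and at 11.05 and 9.95 in knockout, and the S phase and G2 cyclin gene Ccna2 at 5.42 and 8.69 against 9.48 and 8.37. In both of these the knockout libraries lay on either side of WT replicate 5. Cdk1, the mitotic kinase itself, stood at 19.86 and 9.13 in WT and at 10.17 and 9.498 in knockout. Cdc25c, the phosphatase that activates CDK1, stood at 18.83 and 5.93 against 6.90 and 5.83, and Cks2 at 15.29 and 9.36 against 9.44 and 9.899. For Cdk1 and Cks2 both knockout values lay above WT replicate 5 and below WT replicate 4, so the direction of the difference depends on which WT library is used.

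Among the spindle assembly genes, Aurka, Nusap1 and Kif11 lay above both WT libraries. Aurka (chromosome 2, 172356190 to 172370535, minus strand), the Aurora kinase of the spindle poles, stood at 7.46 and 8.76 in WT and at 10.37 and 9.16 in knockout, a limma difference of 1.66 (SE 0.95). Its knockout mean was 2.01-fold above WT replicate 5. Nusap1, a microtubule-bundling protein gene, stood at 7.28 and 7.89 against 9.09 and 8.22, a limma difference of 1.07 (SE 0.75). Kif11, the motor that pushes spindle poles apart, stood at 7.21 and 8.25 against 9.48 and 8.29 (difference 1.15, SE 0.85), and its knockout replicate 3 was 0.040 above WT replicate 5. The other 4 genes put WT replicate 5 between the knockout libraries. Plk1, the Polo-like kinase, stood at 7.47 and 9.90 against 10.42 and 9.27, and Tpx2, the activator of Aurora A, at 7.48 and 9.14 against 9.84 and 8.90. Kif2c, a microtubule-depolymerizing kinesin gene, stood at 5.21 and 7.74 against 8.51 and 7.30, and Hmmr, a spindle and hyaluronan-binding protein gene, at 5.37 and 7.68 against 9.09 and 7.61.

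The chromosomal passenger complex corrects faulty attachments, and its 4 subunit genes had similar profiles in the knockout pair. Aurkb, its kinase, stood at 5.66 and 9.198 in WT and at 9.84 and 8.82 in knockout, a limma difference of 1.90 (SE 1.39). Cdca8, the borealin gene, stood at 7.59 and 10.19 against 10.86 and 9.80, and Incenp, the scaffold gene, at 5.49 and 8.94 against 8.90 and 8.14. Incenp is a member with both knockout values below WT replicate 5. Birc5, the survivin gene, stood at 8.38 and 8.95 against 10.07 and 8.96, a limma difference of 0.85 (SE 0.87), with a gap of 0.010 between the groups. Knockout replicate 1 exceeded replicate 3 by 0.76 to 1.12 log2 across these 4 genes.

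Of the 5 spindle checkpoint genes, Bub1b and Bub1 lay above both WT libraries and the other 3 overlapped with WT. Bub1b (chromosome 2, 118598211 to 118641591, plus strand), which encodes the checkpoint protein BUBR1, stood at 5.25 and 7.18 in WT and at 8.96 and 7.33 in knockout, a limma difference of 1.93 (SE 1.03). Bub1, a kinetochore kinase gene, stood at 5.15 and 6.94 against 7.93 and 7.09, a limma difference of 1.46 (SE 0.90). The gap between the groups was 0.15 in each. Bub3, the partner that brings BUB1 and BUBR1 to kinetochores, stood at 8.63 and 11.598 against 11.76 and 11.44, so that its 2 knockout libraries were 0.32 apart around WT replicate 5. Mad2l1, the MAD2 gene, stood at 5.69 and 9.18 against 9.94 and 9.13. Ttk, the MPS1 kinase gene, stood at 6.94 and 7.23 against 7.87 and 6.41, with both WT values inside the knockout range.

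The centromere and kinetochore genes held the widest distance within the knockout pair. Cenpf, a large kinetochore protein gene, stood at 9.07 and 7.09 in knockout replicates 1 and 3, a difference of 1.97 log2, against 5.39 and 7.87 in WT. Cenpe, the kinetochore kinesin gene, stood at 8.73 and 6.98 against 5.16 and 7.58. Ndc80 and Nuf2, which form the dimer that grips microtubules, stood at 9.198 and 8.25 against 5.51 and 8.56, and at 8.77 and 7.56 against 5.27 and 7.82. The limma difference of Nuf2 was 1.63 (SE 1.12). Cenpa, the centromeric histone gene, stood at 9.64 and 8.76 against 8.24 and 8.75, with a gap of 0.0062 between the groups and a limma difference of 0.71 (SE 0.81).

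The anaphase genes held the member that lay lower in knockout. Espl1 (chromosome 15, 102296266 to 102324357, plus strand) encodes separase, the protease that cuts cohesin. It stood at 7.98 and 6.23 in WT and at 5.80 and 4.17 in knockout, a limma difference of -2.12 (SE 1.01), with a gap of 0.43 between the groups. Pttg1 (chromosome 11, 43420250 to 43426251, minus strand), the securin gene whose product holds separase inactive, stood at 7.51 and 7.63 in WT and at 8.29 and 8.76 in knockout, a limma difference of 0.95 (SE 0.68). Its WT mean was 7.57 ± 0.084 (SD, n = 2) and its knockout mean 8.52 ± 0.33 (SD, n = 2). The inhibitor thus lay above and its target below both WT libraries, though neither passed the test. In the authors' deposited table both had a log2 fold change below 0, -4.39 for Pttg1 and -8.95 for Espl1. Cdc20, the activator of the anaphase-promoting complex, stood at 5.75 and 9.48 against 10.53 and 9.14, and Ube2c, its ubiquitin-conjugating enzyme gene, at 7.29 and 8.42 against 8.88 and 8.396.

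Of the central spindle and cytokinesis genes, Ect2 had the widest gap of all members. Ect2 (chromosome 3, 27097222 to 27153878, minus strand) encodes the exchange factor that activates RhoA at the cleavage furrow. It stood at 4.97 and 3.91 in WT and at 7.29 and 6.83 in knockout, with WT at 4.44 ± 0.75 (SD, n = 2) and knockout at 7.06 ± 0.32 (SD, n = 2). Its limma difference was 2.62 (SE 0.75), with an unadjusted p of 0.0195 and an adjusted p of 0.826 by limma. Its knockout mean was 8.87-fold above WT replicate 5, which was the lower WT library for this gene, unlike for Ccnb1 and Aurka. Kif20a, the kinesin that brings the passenger complex to the midzone, stood at 5.40 and 7.77 against 9.44 and 8.47, a limma difference of 2.37 (SE 1.06).

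The partners of Ect2 in the central spindle did not share its gap. Kif23, the kinesin of the centralspindlin complex that recruits ECT2, stood at 7.04 and 7.18 in WT and at 8.33 and 6.72 in knockout. Prc1, which bundles midzone microtubules, stood at 7.37 and 8.70 against 9.76 and 8.51. Kif4, a chromosome-bound kinesin gene, stood at 6.93 and 7.23 against 7.55 and 6.17, and Anln, the anillin gene of the contractile ring, at 7.16 and 7.53 against 7.81 and 7.10. In Kif23, Kif4 and Anln both WT values lay inside the knockout range.

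The last pair belongs to the mitotic chromosome. Top2a, the topoisomerase that untangles sister chromatids, stood at 15.91 and 10.73 in WT and at 11.01 and 9.73 in knockout, a limma difference of -2.95 (SE 2.42). Mki67, which encodes the proliferation marker Ki-67 that coats mitotic chromosomes, stood at 19.41 and 9.11 against 9.92 and 8.49. Both genes were far higher in WT replicate 4 than in any other library. Against WT replicate 5 alone the knockout mean differed by -0.36 for Top2a and by 0.10 for Mki67.

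In WT replicate 4 the members fell into 3 separate ranges of value, which were marked off after the values were seen. There were 15 members from 4.97 to 5.75, 19 from 6.93 to 8.63 and 5 from 15.29 to 19.86. No member stood from 6 to 6.8 or from 9 to 15 in that library, although 13, 24 and 11 members stood from 9 to 15 in WT replicate 5 and knockout replicates 1 and 3. Over all tested genes, 1.27% lay from 6 to 6.8 in WT replicate 4, against 7.65%, 7.09% and 7.63% in the same other libraries. From 9 to 15 the share was 5.28%, against 14.6%, 15.2% and 14.6%. At 15 and above it was 6.22%, against 0.052%, 0.0405% and 0.0462%. Partners of 1 complex stood on opposite sides in WT replicate 4: relative to WT replicate 5, Cdk1 differed by 10.73 log2 and Ccnb1 by -1.34. The passenger genes Aurkb, Incenp and Cdca8 differed by -3.54, -3.44 and -2.59, and Birc5 by -0.57. WT replicate 4 lay below WT replicate 5 in 32 of 39 members (82.1%), against 46.0% of all tested genes. The part of this library in the differences above is shown by the values without it.

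**Figure D4:**
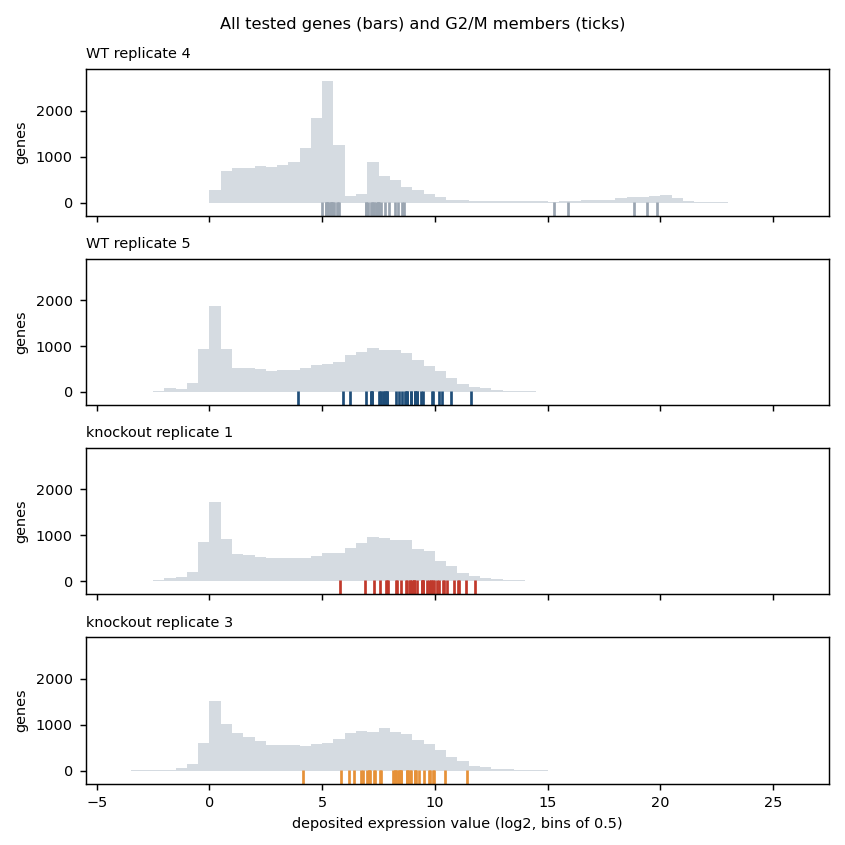
Histograms of the deposited log2 values of all 17303 tested genes in each library (bars, number of genes per bin of 0.5) with the 39 members as ticks. In WT replicate 4 the members form 3 separate ranges with none from 6 to 6.8 or from 9 to 15, while 11 to 24 members stand from 9 to 15 in each of the other 3 libraries.

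The authors' deposited table called 0 of the 39 members at an adjusted p under 0.05 in either direction. Over its 20610 genes with a fold change it called 0.131% with a fold change above 0 and 3.83% with a fold change below 0. The smallest adjusted p among the members in the authors' deposited table was 0.0671, for Pttg1, with a log2 fold change of -4.39, although both knockout values of Pttg1 lay above both WT values. The next was 0.0879 for Ect2, with a log2 fold change of 3.22. The sign of the fold change in the authors' deposited table was opposite to knockout minus WT of the sample columns for 5 members, Ccnb1, Ccnb2, Birc5, Pttg1 and Kif4, against 15.7% of 17185 genes. Without WT replicate 4 it was opposite for 13 members (33.3%), against 41.5% of those genes. For Cdk1, Cdc25c, Birc5, Incenp, Espl1 and Mki67 the authors' deposited table lists a p-value of 1, with log2 fold changes from -11.28 for Cdc25c to 0.84 for Incenp. A p-value of 1 is listed there for 7.59% of genes with a fold change.

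The same difference within the knockout pair was seen in most of the 125 other mitotic genes. Knockout replicate 1 lay above replicate 3 in 104 of the 125 (83.2%), against 53.7% of all tested genes. It did so in 8 of 8 condensin genes, which compact chromosomes, with a median of 0.98 log2, and in 11 of 11 cohesin genes, which hold sisters together, with a median of 0.55. It did so in 32 of 35 other spindle and cytokinesis genes (median 1.08) and in 30 of 33 other kinetochore and checkpoint genes (median 0.54). The count was 13 of 21 for regulators of mitotic entry and transcription (median 0.46) and 10 of 17 for subunits and regulators of the anaphase-promoting complex (median 0.25). The lists were not tested against each other.

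**Figure D5:**
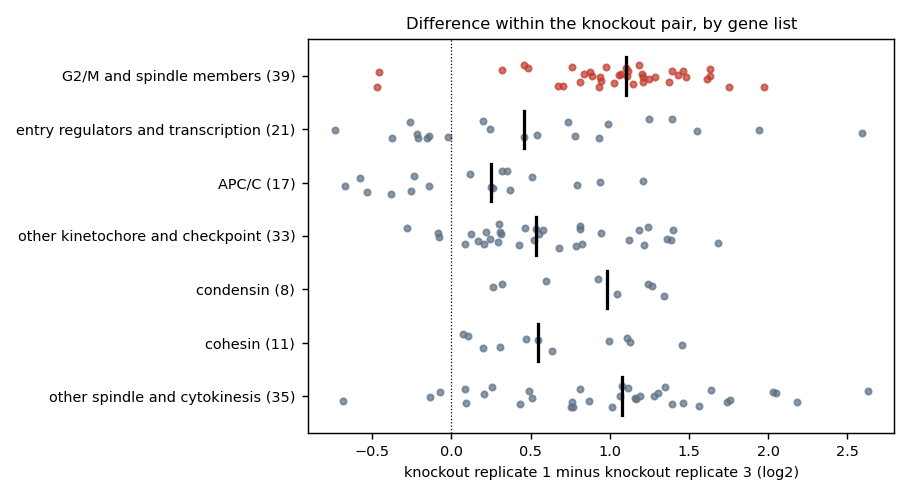
Knockout replicate 1 minus knockout replicate 3 on the log2 scale for the 39 members (red) and 6 lists of other mitotic genes (blue-grey), 1 point per gene with its list's median as a black bar and the number of genes in brackets. Points lie right of 0 in 37 of 39 members and in 10 of 17 genes of the anaphase-promoting complex list.

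Limma called 0 of the 125 other mitotic genes, with 5 at an unadjusted p under 0.05, against 3.76% of all tested genes. Both knockout values lay above both WT values in 45 (36.0%, against 17.3% of all tested genes) and below in 3 (against 18.8%). Against WT replicate 5 alone both knockout values lay above in 54 (43.2%, against 41.8%) and below in 19 (15.2%, against 33.4%). Of the genes with the smallest p in each list, Mybl2, the B-MYB gene that drives late cell cycle transcription, stood at 5.25 and 6.25 in WT and at 8.32 and 7.54 in knockout. Rbl1, the p107 gene, stood at 5.24 and 5.39 against 7.86 and 6.93. Cenpk and Cenpw, genes of the inner kinetochore, stood at 5.17 and 5.55 against 7.44 and 7.15, and at 5.31 and 6.70 against 8.02 and 7.55. Ckap2, a spindle protein gene, stood at 4.86 and 4.80 against 7.59 and 6.53, and Haus3, of the augmin complex, at 5.41 and 6.75 against 8.53 and 7.77. The cohesin regulator gene Pds5b stood at 5.18 and 5.37 against 7.32 and 6.77. In these 7 genes the groups did not overlap, and limma's adjusted p was 0.826 for each. Of the others named by the same rule, Cdc16, Cdc23 and Ncapd3 also lay above both WT libraries, and Ncapg2 and Smc3 overlapped. Of these 125 genes, 4 had an adjusted p under 0.05 and a fold change below 0 in the authors' deposited table. Over its 20610 genes with a fold change the share was 3.83%. Called with a fold change above 0 were 0 of the 125, against 0.131%.

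Markers of myeloid cells and of other cells were read list by list. All 9 genes of the myeloid list were tested, with a summed level, as log2, of 16.45 in WT replicate 5 and of 16.92 and 16.91 in knockout replicates 1 and 3, and in WT replicate 4 it was 24.16. Most of that sum was Elane, the neutrophil elastase gene, at 16.48 and 16.55 in the knockout libraries. Within the knockout pair single myeloid genes differed by -1.02 for Fcgr3 to 1.41 for Mpo, with a median of 0.39, and 5 of 9 lay higher in replicate 1. The lowest was Cebpa, at 4.81 and 5.70 in WT and at 6.21 and 5.45 in knockout. Of the erythroid list 11 of 12 genes were in the table, and its log2 summed level was 8.22 and 7.71 in WT and 8.81 and 8.02 in knockout. This sum lay higher in knockout replicate 1 than in replicate 3, but only 3 of its 8 tested genes did, with a median of -0.77 log2. The part of erythroid cells in the difference of the mitotic genes was not tested. Most of that sum was Tfrc, the transferrin receptor gene, at 8.72 and 7.85 in the knockout libraries, while the globin gene Hbb-bs was at 0.70 and 2.67. The B cell list had a log2 summed level of 5.84 to 7.44, mostly Cd79b. The T and NK cell list ranged from 8.51 to 19.38, mostly Nkg7, with Cd3e, Cd3g and Cd8a at 0 in all 4. The megakaryocyte list ranged from 2.70 to 5.56, with Gp1bb at 0, and the stroma and endothelium list from 6.18 to 7.15, mostly Pecam1, with Lepr at 0 in all 4.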

How the data were processed

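The authors deposited 1 table of log2 expression values for 4 libraries, and, for each gene, their own log2 fold change, p-value and adjusted p-value. CASAVA, DESeq2, featureCounts, HISAT2 2.1.0 and the build GRCm38 appear in the submitters' processing notes without role or order. How the deposited log2 values were normalized is not given in the sources used here. Deposited fold changes, headed WT vs. cKO, correlate with knockout minus WT across 17185 genes (Pearson's r = 0.78, genes not being independent replicates) and are read as knockout over WT. Depth is unknown, and no interval that needs it was computed.

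The filter kept the 17303 genes that reached a log2 value of 0 in at least 2 libraries and did not stand at 0 in all 4. Limma 3.58.1 in R 4.3.3 with a mean-variance trend was fitted to the log2 values as deposited, with Benjamini-Hochberg adjustment over all tested genes. The fit was checked on simulated data with the same spread in every library and none like WT replicate 4. That check therefore does not show which changes the fit would miss in these data. The 39 members, the lists of other mitotic genes and cell markers, and the tests were chosen with earlier results of these data known. The naming rule gave differences and SE to members whose groups did not overlap and to the member with the smallest p in each role, and named the 2 other mitotic genes with the smallest p per list. With 2 libraries a group an exact permutation test cannot reach the threshold, so none was run. Gene coordinates are from GENCODE M21 (GRCm38). Pseudogenes of Ccnb1, Ccnb2 and Kif4 are annotated, and how reads shared with them were counted is not given in the sources used here. Promoters are from RefSeq (GRCm38.p6).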

Additional observations from a re-analysis of the deposited data

How the results depend on the processing

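No paired analysis was possible because the groups share no replicate number. Leaving out a library in turn, limma called 0 to 4960 genes and 0 to 10 members, the highest counts both without WT replicate 5. Members with every remaining knockout value above every remaining WT value numbered 11 to 32. With both knockout libraries kept the counts were 13 and 29, and with 1 knockout library they were 11 and 32. The median member difference ran from 0.30 to 2.31 log2. Centred library medians without WT replicate 4 gave 17 members above WT and a median difference of 0.38. The share of all tested genes under that setting is not given here, so the count of 17 is not read as a result about the members. Quantile normalization without WT replicate 4 gave a median of 0.29. These combinations, the scalings within the knockout pair and the gap and sign counts without WT replicate 4 were chosen after the values were seen.

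Single members changed direction mostly between the WT libraries. Over the fits that leave out a library, the difference ran from -10.03 to 0.70 for Cdk1, -5.62 to 0.30 for Cks2, -12.46 to 0.44 for Cdc25c, -10.20 to 0.10 for Mki67, -0.41 to 3.03 for Incenp and -0.057 to 2.38 for Plk1. Between the knockout libraries it ran from -0.68 to 0.78 for Ttk, -0.39 to 1.22 for Kif23, -0.91 to 0.47 for Kif4 and -0.24 to 0.46 for Anln. Ttk and Anln also turned without WT replicate 4, to -0.093 and -0.077. Centring turned Ttk to -0.084 and Anln to -0.024, and quantile normalization turned Ttk to -0.51, Kif23 to -0.026 and Anln to -0.46. The cause was not tested. Quantile normalization moved the median over all genes from -0.093 to 0.16 and that of the members from 1.31 to 0.90. The filters, the pseudocount and limma without a trend changed no call or direction of a member, but the filter at log2 5 moved the median over all genes to 0.60 while that of the members was 1.31. The count of 37 members with knockout replicate 1 above replicate 3 was also 37 after centring and after quantile normalization, and the CHR count was 24 with 150 bases before the start, where the share over all genes fell from 20.2% to 12.8%. Depth limits could not be computed without counts.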
